A study of Mus musculus with 12 samples.

Results

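Plexins and neuropilins are the cell-surface receptors for semaphorins, a family of secreted and membrane-bound guidance cues. The 6 genes described here, Plxna1, Plxnb2, Plxnc1, Plxnd1, Nrp1 and Nrp2, were measured in macrophages sorted from injured mouse muscle. They were found by symbol among the 24421 genes of the deposited count table, and all 6 were among the 12981 genes that passed the filter on low counts. The set was chosen by the CPM of Plxna1, which was lower under anti-TNF antibody in both genotypes, so the antibody values of these genes are given as a description, with estimates and intervals and without a test.

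Plexins are single-pass receptors whose intracellular part acts on small GTPases and so reshapes the actin cytoskeleton and integrin adhesion. Neuropilins have only a short intracellular tail. They bind class 3 semaphorins and members of the vascular endothelial growth factor (VEGF) family and signal through a partner, often an A-type plexin. In myeloid cells these receptors are known for roles in migration, entry into lymphatics and antigen presentation, and Plxna1 can associate with Trem2 and its adaptor Tyrobp.

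The cells were PI-, CD45+, CD11B+ and LY6G/SIGLECF-, taken from the tibialis anterior on day 5 after injection of Notexin, a snake venom toxin that destroys muscle fibres. The mice carried 1 or 2 null alleles of Ifngr1, the ligand-binding chain of the interferon gamma receptor, and are called wt/null and null/null. The control genotype thus also had a null allele, and no wt/wt mice were in the series. Mice of each genotype were given an anti-TNFα neutralizing antibody or an isotype antibody every day by intraperitoneal injection, which made 4 groups of 3 libraries, 12 in all. The labels do not say that each library was a separate mouse, so the p-values measure the spread between these samples, which may in part be technical. Titles open with 40 in 8 libraries and with 46 in 4 libraries, 1 of each group, and what that number stands for is not stated.

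Libraries held 23.2 to 29.9 M counts. The level of Ifngr1 is given in CPM (counts per M library counts, scaled by TMM factors), with its mean ± SD over 3 libraries. It was 232 ± 6.92 CPM in wt/null isotype and 242 ± 13.6 CPM in wt/null anti-TNF. It was at 88.7 ± 1.33 CPM in null/null isotype and 96.4 ± 19.4 CPM in null/null anti-TNF. The mean genotype difference was -1.36 ± 0.08 on the log2 scale (estimate ± SE, adjusted p = 1.43e-05). Defining macrophage markers were present in every library, with Csf1r at 3157 to 4061, Adgre1 at 1368 to 1783 and Cd68 at 1266 to 1749 CPM. On the first principal component (34.4% of the variance), wt/null anti-TNF replicate 2 lay at 54.2 and null/null anti-TNF replicate 1 at 45.9. The other 10 libraries lay between -20.8 and -3.47. These 2 libraries are titled 40C1 and 40C2, and what the letter and the last digit of a title stand for is also not stated. The differences fitted without them are given beside those of all 12 libraries.

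RefSeq promoter windows of GRCm38.p6 ran from 250 bases before to 50 after a start site. They were matched by symbol for 5 of the 6 genes, with 2 windows for Plxnb2. No window was found for Plxna1, so its promoter was not searched. The matched windows were GC-rich, at 61.7% to 70.7% GC against a median of 52.7% over all 32851 windows. Because the study varied the interferon gamma receptor and neutralized TNF, both strands were searched for motifs named after factors downstream of these cytokines. The GC box and the E-box CACGTG were searched as well, not for that reason. The GAS element TTCNNNGAA (in 8.30% of all windows), the AP-1 site TGANTCA (7.81%) and the NF-kB motif (4.51%) had no match in the 6 windows. Nor did the E-box (7.15%). The core of interferon regulatory factor sites, AANNGAAA, was in 23.9% of all windows and had 1 match, in Plxnc1. The GC box GGGCGG was in 35.7% of all windows and in all 6 of these, with 1 match in Nrp1 and 5 in Nrp2, of which 2 overlap. A match is a description of letters and not a site. The stretches below show the interferon-type match of Plxnc1 at chr10:94944846-94945095 (minus strand) and the GC boxes of Nrp2, the most variable of the 6 genes, at chr1:62703067-62703284 (plus strand). They run 5′ to 3′ and end before the annotated gene starts. Capitals mark the AANNGAAA match in Plxnc1, which begins 116 bases before the start site, and 4 of the GC boxes on either strand in Nrp2.
Plxnc1: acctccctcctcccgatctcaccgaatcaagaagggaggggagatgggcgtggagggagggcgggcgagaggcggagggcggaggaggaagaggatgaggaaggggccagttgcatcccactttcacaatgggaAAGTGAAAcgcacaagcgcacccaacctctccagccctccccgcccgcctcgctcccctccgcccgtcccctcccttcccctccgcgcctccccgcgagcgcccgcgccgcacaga
Nrp2: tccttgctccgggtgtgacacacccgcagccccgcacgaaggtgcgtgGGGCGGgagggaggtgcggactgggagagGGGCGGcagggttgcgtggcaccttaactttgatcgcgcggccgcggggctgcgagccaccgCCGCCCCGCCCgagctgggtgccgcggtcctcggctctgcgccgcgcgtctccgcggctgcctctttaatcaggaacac

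To rank the receptors, CPM values were divided by exon length, since a longer gene collects more reads. Plxnb2, a receptor for class 4 semaphorins, was highest at 114 ± 9.86 CPM per kb of exon (mean ± SD over 12 libraries). Plxnd1, the receptor that Sema3e binds directly, followed at 63.5 ± 8.53, and Nrp1 was at 46.0 ± 5.49 CPM per kb. The order Plxnb2, Plxnd1, Nrp1, Plxnc1 held in 12 of 12 libraries. The lowest 3 were close to each other. Plxnc1, the receptor of Sema7a, was at 20.8 ± 2.53, Plxna1 at 19.6 ± 3.30 and Nrp2 at 19.4 ± 5.65 CPM per kb. Plxnc1 exceeded Plxna1 in 7 of 12 libraries and Plxna1 exceeded Nrp2 in 7 of 12, so these neighbours did not differ beyond their spread.

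The mouse genome has 5 further plexins, and all were low in these cells. Plxnb2 made up 51.6% of the summed plexin level per kb (48.5% to 53.9% across libraries), Plxnd1 28.6%, Plxnc1 9.46% and Plxna1 8.80%. The 4 described plexins together made up 98.5% (98.3% to 98.6%). Among the rest, Plxnb3 had the highest level per kb, at 1.26 ± 0.247 CPM per kb, and Plxnb1 the lowest, at 0.100 ± 0.0332. Plxna1 was the most abundant A-type plexin transcript per kb in the mean over libraries, with Plxna2 at 0.747, Plxna3 at 0.716 and Plxna4 at 0.591 CPM per kb. Among semaphorins, Sema4d (27.7 CPM per kb) and Sema4a (20.0) reached the level of Plxnc1 and Plxna1.

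**Figure D1:**
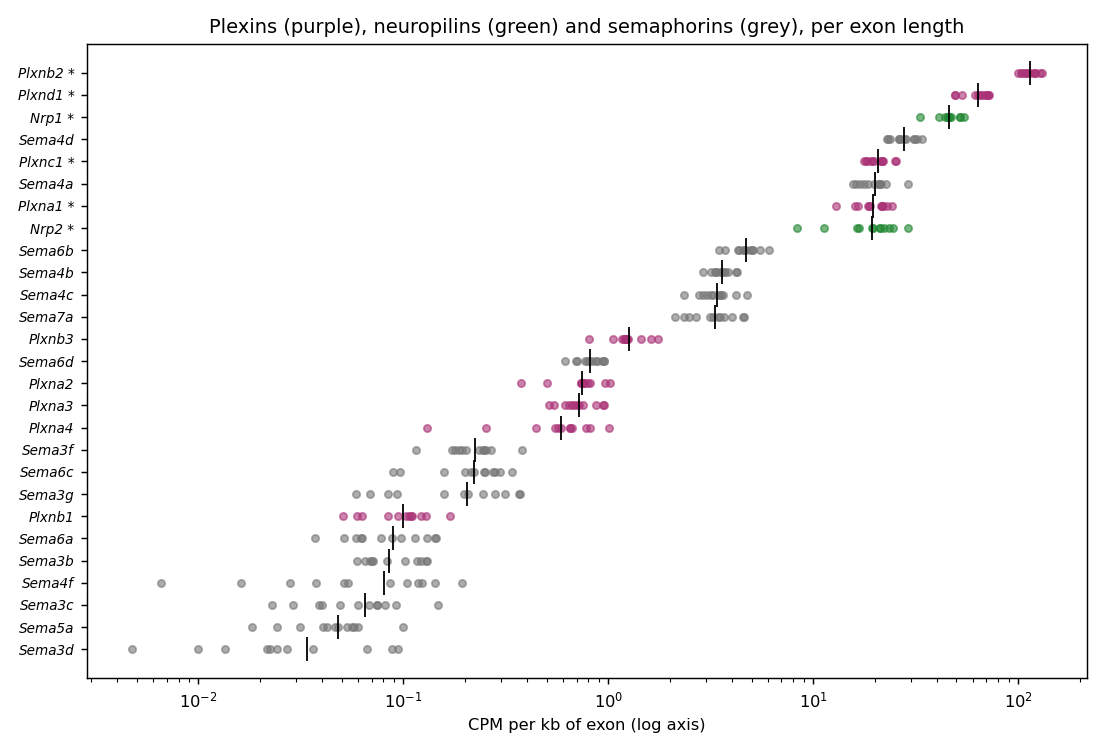
CPM per kb of exon on a log axis for the plexins (purple), neuropilins (green) and tested semaphorins (grey), with 1 dot per library and a vertical mark at the mean of 12 libraries. Libraries with a value of 0 are not drawn, an asterisk marks the 6 described genes, and these lie above every other plexin, with Plxnb2 at 114 and Plxnb1 at 0.100 CPM per kb.

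Plxna1 (chr6:89316314-89362620, minus strand, GRCm38), an A-type plexin that pairs with neuropilins and with Trem2, had 207, 195 and 198 CPM in wt/null isotype and 144, 117 and 168 CPM in wt/null anti-TNF. It had 193, 197 and 220 CPM in null/null isotype and 149, 169 and 170 CPM in null/null anti-TNF. All 6 anti-TNF libraries lay below all 6 isotype libraries, and the groups did not overlap in either genotype. The fitted difference was -0.48 ± 0.12 (log2, estimate ± SE) in wt/null, a level 28.5% lower, with a 95% interval of -0.74 to -0.23. In null/null it was -0.32 ± 0.12, a level 20.0% lower, with an interval of -0.58 to -0.06. These values chose the set and support nothing further.

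Among all 12981 tested genes, 4.45% had the 3 anti-TNF libraries below the 3 isotype libraries in wt/null and 4.55% had them so in null/null. The share with all 6 below all 6 was 0.270%, which is 35 genes, Plxna1 among them. The comparison of antibodies called 0 genes at an adjusted p below 0.05 in wt/null, null/null or their mean (0% of those tested, edgeR quasi-likelihood). At an unadjusted p below 0.05, it had 581, 452 and 949 genes. DESeq2 called 0 in either genotype and 6 for the mean of both, and limma voom called 0 in all 3. In bulk samples, fewer cells of a type and less RNA per cell cannot be told apart.

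Without the 2 libraries that stand apart, the Plxna1 difference was -0.36 ± 0.10 for wt/null mice and -0.26 ± 0.10 for null/null mice. Split by the number in the title, where the direction is fixed because no anti-TNF library overlapped an isotype library, the difference in log2 CPM was -0.63 (wt/null) and -0.38 (null/null) among libraries titled 40, and -0.24 and -0.21 among those titled 46, where it rests on 1 library against 1. An antisense gene, Gm26811, covers 970 exonic bases (10.7%) of Plxna1 in the GENCODE M21 annotation. Whether the counting used strand is not stated in these sources, so it is unknown whether reads of the 2 genes were kept apart in these bases.

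**Figure D2:**
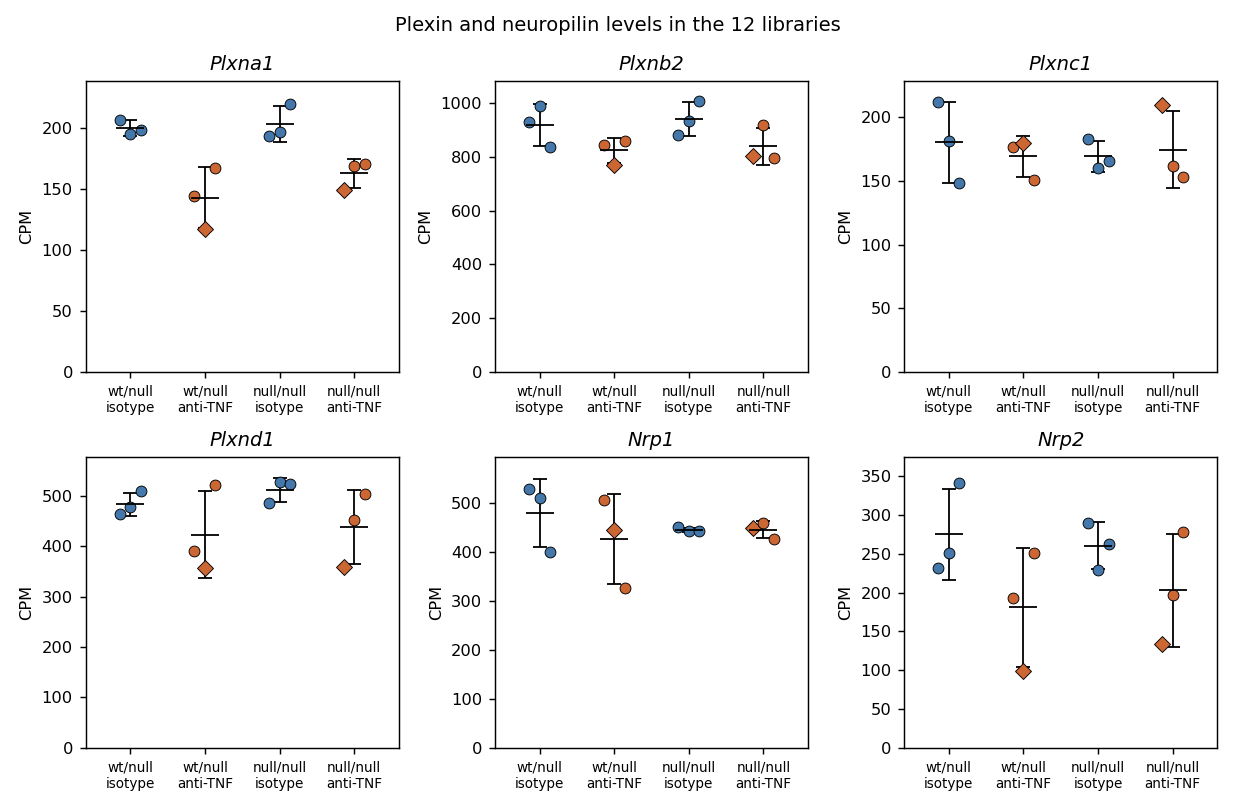
TMM-scaled CPM of each gene in the 12 libraries by group, with isotype in blue and anti-TNF in orange, horizontal bars at the mean and error bars of 1 SD (n = 3). Diamonds are the 2 libraries that stand apart, and the Plxna1 panel shows all 6 anti-TNF libraries (117 to 170 CPM) below all 6 isotype libraries (193 to 220 CPM).

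Nrp2 (chr1:62703285-62818695, plus strand), which binds Sema3f and VEGF-C, had the widest spread. It was at 232, 251 and 342 CPM in wt/null isotype and at 193, 98.9 and 251 CPM in wt/null anti-TNF. It was at 290, 230 and 262 CPM in null/null isotype and at 134, 197 and 279 CPM in null/null anti-TNF. The groups overlapped in both genotypes, and the lowest 2 values, 98.9 and 134 CPM, belong to the libraries that stand apart. The antibody difference was -0.60 ± 0.33 in wt/null (interval -1.34 to 0.13) and -0.36 ± 0.33 in null/null. Without those 2 libraries it was -0.31 ± 0.20 and -0.13 ± 0.20.

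Plxnd1 (chr6:115954811-115995005, minus strand) had 464, 477 and 509 CPM in wt/null isotype and 390, 357 and 521 CPM in wt/null anti-TNF. It had 485, 527 and 523 CPM in null/null isotype and 359, 451 and 503 CPM in null/null anti-TNF. As for Nrp2, the lowest values, 357 and 359 CPM, were those of the libraries that stand apart, and the groups overlapped in both genotypes. The difference was -0.19 ± 0.15 for wt/null mice and -0.22 ± 0.15 for null/null mice, against -0.08 ± 0.12 and -0.10 ± 0.12 without those libraries.

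Plxnb2 (chr15:89155549-89180788, minus strand) was at 928, 989 and 837 CPM in wt/null isotype and at 845, 770 and 857 CPM in wt/null anti-TNF. It was at 881, 934 and 1009 CPM in null/null isotype and at 803, 918 and 796 CPM in null/null anti-TNF. The groups overlapped, and the differences of the 2 genotypes were alike in size, at -0.16 ± 0.10 and -0.17 ± 0.10. Their mean was -0.16 ± 0.07, with an interval of -0.31 to -0.01, and it was -0.12 without the 2 libraries (interval -0.30 to 0.05).

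Plxnc1 (chr10:94790866-94944835, minus strand) was at 212, 181 and 148 CPM in wt/null isotype, and at 177, 180 and 151 CPM in wt/null anti-TNF. It was at 183, 160 and 165 CPM in null/null isotype, and at 209, 162 and 153 CPM in null/null anti-TNF. Values of every group lay in the same range. The difference was -0.09 ± 0.14 for wt/null mice and 0.04 ± 0.14 for null/null mice, and without the 2 libraries it was -0.14 and -0.11. With 1 library left out, it lay on either side of 0, from -0.22 to 0.04 in wt/null and from -0.11 to 0.13 in null/null.

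Nrp1 (chr8:128358604-128503363, plus strand), which binds Sema3a and VEGF-A, had 530, 511 and 401 CPM in wt/null isotype, and 507, 445 and 326 CPM in wt/null anti-TNF. It had 451, 443 and 444 CPM in null/null isotype, and 450, 460 and 428 CPM in null/null anti-TNF. The null/null libraries lay close together, whereas 1 library of each wt/null group was well below the other 2. The difference was -0.17 ± 0.15 for wt/null mice and 0.00 ± 0.15 for null/null mice, and -0.20 and -0.01 without the 2 libraries that stand apart. With 1 library left out, the wt/null value ranged from -0.32 (without anti-TNF replicate 1) to -0.01 (without anti-TNF replicate 3). Over the 6 genes the median difference was -0.18 in wt/null, where 6 of 6 estimates were below 0, and -0.20 in null/null, where 4 of 6 were. These counts include Plxna1, which chose the set. Over all tested genes the median was 0.00 and 0.01, and 49.2% and 48.7% of estimates were below 0.

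**Figure D3:**
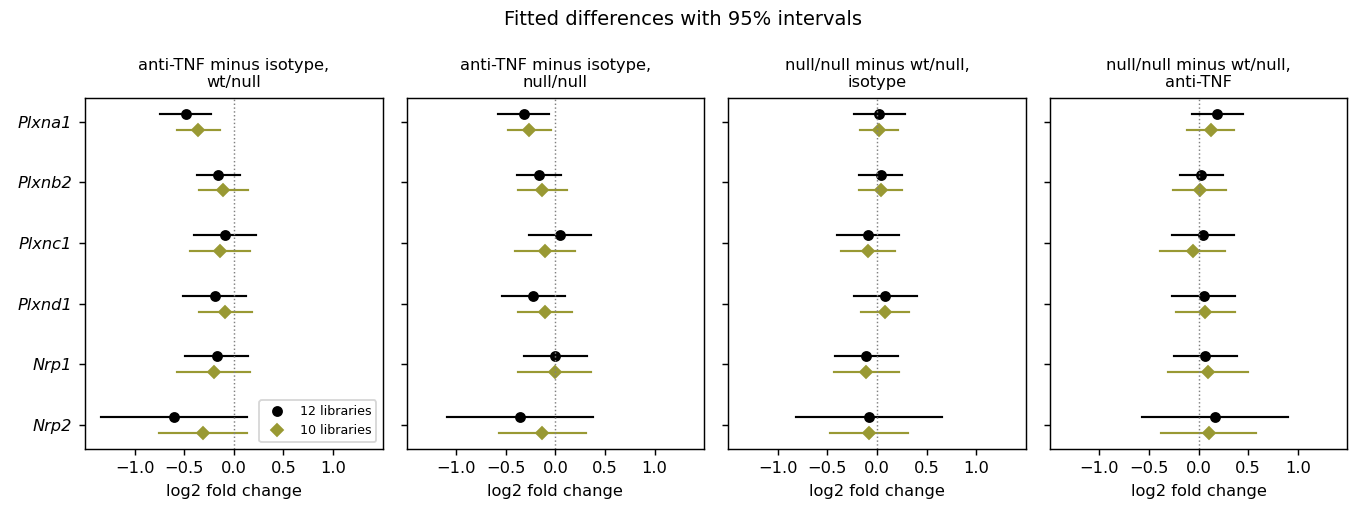
Fitted log2 fold changes of the 6 genes with 95% intervals for anti-TNF against isotype in each genotype and for null/null against wt/null under each antibody. Black circles use 12 libraries and olive diamonds the 10 without the 2 that stand apart, and the widest intervals are those of Nrp2 (-1.34 to 0.13 for the antibody in wt/null). Plxna1 chose the set, so its antibody intervals are no test.

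Loss of the second Ifngr1 allele was tested for all 6 genes, since the choice used the antibody difference and not the difference between genotypes. The Plxna1 values of both genotypes entered that choice, so its genotype results are a description and support nothing further. The comparison called 0 of 6 under isotype, under anti-TNF and for the mean of both. Over all tested genes it called 1, Ifngr1 itself, in each of the 3 comparisons (0.00770%). At an unadjusted p below 0.05 there were 234 genes under isotype, 257 under anti-TNF and 319 for the mean. DESeq2 called 2, 2 and 4 genes, and limma voom 1 in each.

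For the mean over both antibodies, Plxna1 differed by 0.11 ± 0.08 between null/null and wt/null (log2, interval -0.08 to 0.29), given without a test. Its levels under isotype were 200 ± 6.25 CPM in wt/null and 203 ± 14.5 CPM in null/null. Under anti-TNF they were 143 ± 25.2 and 163 ± 11.9 CPM, a difference of 0.19 ± 0.12 (interval -0.07 to 0.44). In the mean over both antibodies, Plxnb2 differed by 0.03 ± 0.07 (interval -0.12 to 0.19) and Plxnd1 by 0.07 ± 0.10 (-0.16 to 0.29). The intervals of these means for the 4 plexins, Plxnc1 included (-0.02 ± 0.10, -0.24 to 0.20), reach at most 0.29 in size. Nrp1 differed by -0.02 ± 0.10 (interval -0.25 to 0.20). Nrp2 differed by 0.05 ± 0.23, and its interval of -0.48 to 0.57 is wider. The adjusted p of these means was 0.9996 for each of the 5 tested genes (edgeR quasi-likelihood). Without the 2 libraries that stand apart, the means of the 6 genes lay between -0.07 (Plxnc1) and 0.07 (Plxnd1), with 0 of the 5 tested genes called. These misses of the threshold do not show that the genotypes were alike.

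Whether the antibody difference itself depended on genotype was tested for the 5 genes other than Plxna1, and 0 of 5 were called (0% of all tested genes, with 196 genes at an unadjusted p below 0.05, and 0 called by DESeq2 or limma voom). The difference of differences was -0.01 ± 0.14 for Plxnb2, 0.14 ± 0.20 for Plxnc1 and -0.03 ± 0.21 for Plxnd1. It was 0.17 ± 0.21 for Nrp1 and 0.25 ± 0.47 for Nrp2 (adjusted p = 0.9998 for each of the 5). For Plxna1 it was 0.16 ± 0.17, with an interval of -0.20 to 0.53, given without a test. Without the 2 libraries the values lay between -0.03 (Plxnb2) and 0.20 (Nrp1), with 0 of 5 called.

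The known ligands, partners and effectors of these receptors were read from lists of 83 genes, of which 76 were tested. None was called in any of the 7 comparisons of genotype and antibody by edgeR, DESeq2 or limma voom. Between 0 and 2 (at most 2.63%) had an unadjusted p below 0.05 in each comparison, against 1.51% to 7.31% of all tested genes. In the antibody comparison these were Sema4c (0.43 ± 0.18) and Cdk5 (0.22 ± 0.10) in wt/null, and Gipc1 (-0.28 ± 0.13) and Rap1a (0.29 ± 0.13) in null/null. These 4 were named after their values were seen, and their adjusted p were 0.895 in wt/null and 0.947 in null/null.

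Of 20 semaphorins, 16 were tested. Sema4d, a membrane-bound semaphorin that B-type plexins bind, was the most abundant at 213 CPM (175 to 260 across libraries). Sema4a followed at 108 CPM (84.2 to 157), then Sema4b at 20.2 and Sema6b at 18.6 CPM. Of the secreted class 3 semaphorins, Sema3f was at 1.16 CPM, and Sema3a (0.177 CPM) and Sema3e (0.0343 CPM) were below the filter. Sema7a, the ligand of Plxnc1, was at 10.9 CPM, and Sema6d, a ligand of Plxna1, at 8.62 CPM. Under anti-TNF, Sema4d differed by 0.02 ± 0.11 and Sema4a by 0.14 ± 0.13 for the mean of both genotypes.

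Growth factors that neuropilins bind were led by Tgfb1 at 508 CPM (433 to 606), followed by Hgf at 43.4, Vegfb at 36.1 and Vegfa at 20.2 CPM. Vegfa ranged from 5.73 to 35.3 CPM between libraries. The VEGF receptors Kdr and Flt1 were at 9.76 and 4.21 CPM.

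Of the 12 listed partners and other semaphorin receptors, 11 were tested, and the leading 3 were above Tgfb1. Tyrobp, the adaptor of Trem2, was at 1068 CPM (893 to 1195), Itgb1, an integrin chain that Sema7a engages, at 630 CPM, and Trem2 at 604 CPM (469 to 700). Cd72, a Sema4d receptor of immune cells, was at 247 CPM. Under anti-TNF, Trem2 differed by -0.05 ± 0.11 and Tyrobp by 0.05 ± 0.08 for the mean of both genotypes. Effectors were led by Cfl1, which severs actin filaments, at 1208 CPM, and by the small GTPases Cdc42 (857 CPM), Rap1b (576 CPM) and Rac1 (498 CPM). The smallest adjusted p of the pathway genes for the mean antibody difference was that of Rap1a, a GTPase on which plexins act (0.19 ± 0.09, adjusted p = 0.660).

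The 2 libraries that stand apart carried low values of several receptors at once. Beside Nrp2 and Plxnd1, Plxna4 was at 1.84 and 3.56 CPM against 6.25 to 14.2 in the other 10, and Plxna2 at 6.47 and 8.64 against 12.6 to 17.4 CPM. Plxna1 itself was at 117 and 149 CPM there, against 144 to 170 in the other anti-TNF libraries, so the second of them was within their range. Plxnc1 was not low in them, at 180 and 209 CPM. The ratio of Nrp1 to Nrp2 per kb was 5.44 and 4.07 in these 2 libraries and 1.42 to 3.18 in the others. The antisense gene Plxna4os1, named after its values were seen, was at 20.9 and 17.1 CPM against 8.26 to 15.4 CPM.

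In these 2 libraries, some markers of other cells also lay outside the range of the other 10. The summed fibroblast markers were at 394 and 285 CPM, against 590 to 1476 in the other 10, with 3 of 6 genes below all others and 0 above. Of 8 dendritic cell markers, 6 were above all others and 1 below, although the sums (979 and 1052 CPM) lay within the range of 906 to 1409. Plasmacytoid dendritic cell markers summed to 121 and 116 CPM against 75.8 to 105 (4 of 5 genes above). Of 7 T and NK cell markers, 6 were above all others, with sums of 163 and 119 CPM against 93.0 to 198. Endothelial markers, of interest because endothelium expresses Nrp1, Nrp2 and Plxnd1, summed to 54.0 and 47.7 against 21.6 to 41.4 CPM (2 of 8 genes above). The 9 macrophage markers summed to 27383 and 25338 CPM against 26324 to 32208, with 2 genes above all others and 1 below. Itgax (mean 1004 CPM over the libraries) made up most of the dendritic cell sum, and Lyz2 (16313 CPM) most of the macrophage sum. Cd4 (128 CPM) and Tcf4 (84.0 CPM) did so for the T and NK cell and the plasmacytoid dendritic cell sums. Those sums thus say little about the other genes of their lists. Of 7 muscle markers, 1 was above all others. The B cell, neutrophil and eosinophil, and glial lists had 0 of 3, 1 of 7 and 0 of 4 genes above, and Epx was at 0 in every library. The 2 libraries were singled out by the first principal component of the same data, so genes of many kinds may lie outside the other 10. The share of all tested genes that do so was not counted, so these numbers of markers are only a description. The part of these cells in the receptor values was not tested.

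The number that opens the title was compared after its values were seen, with the 4 groups kept in the fit. Between the 4 libraries titled 46 and the 8 titled 40, 2 genes were called (0.0154%), neither of them a plexin or neuropilin, and 1276 had an unadjusted p below 0.05. Plxnc1 was at 148 to 160 CPM in libraries titled 46 and at 162 to 212 CPM in those titled 40, a difference of -0.26 ± 0.08 (adjusted p = 0.333). Nrp1 was at 326 to 443.05 against 443.67 to 530 CPM, a difference of -0.25 ± 0.09 (adjusted p = 0.376). For both, every library titled 46 lay below every library titled 40, as in 0.678% of tested genes. The estimates of Plxnd1 and Nrp2 were above 0, at 0.24 ± 0.09 (adjusted p = 0.377) and 0.46 ± 0.21 (adjusted p = 0.512). Plxna1 differed by 0.09 ± 0.09 and Plxnb2 by -0.06 ± 0.07. No difference passed the threshold. The count of 2 called genes depended on the tool and on single libraries. It was 147 with DESeq2 and 82 without the 2 libraries that stand apart, 0 without wt/null isotype replicate 3 or wt/null anti-TNF replicate 3, and 86 without null/null isotype replicate 2.

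**Figure D4:**
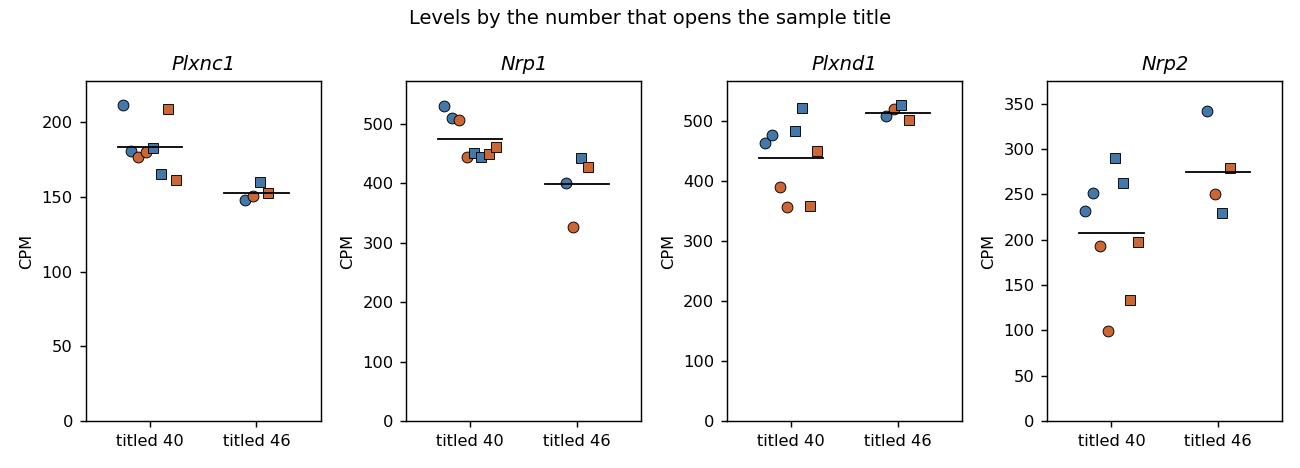
TMM-scaled CPM of Plxnc1, Nrp1, Plxnd1 and Nrp2 in the 8 libraries titled 40 and the 4 titled 46, with circles for wt/null, squares for null/null, blue for isotype, orange for anti-TNF and a line at the mean. Plxnc1 (148 to 160 CPM) and Nrp1 (326 to 443.05 CPM) lie below all libraries titled 40 in those titled 46.

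The log2 CPM of the 6 genes were compared over the 12 libraries, which share groups and title numbers. Pearson r was 0.77 for Plxna1 with Plxnb2, 0.82 for Plxna1 with Plxnd1, 0.83 for Plxna1 with Nrp2 and 0.88 for Plxnd1 with Nrp2. Over the 10 libraries without the 2 that stand apart, these were 0.62, 0.63, 0.51 and 0.64. Plxnc1 varied with Nrp1 (r = 0.66 over 12 and 0.78 over 10), while Plxnd1 varied against Plxnc1 (r = -0.61 and -0.47) and against Nrp1 (r = -0.36 and -0.61).

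By the same measure, the genes most like Plxna1 were Sec31a (r = 0.96, and 0.90 over 10 libraries), Kif1c (0.96 and 0.90), Tln1 (0.94 and 0.89), Slc19a1 (0.94 and 0.85) and Myh9 (0.93 and 0.92). Sec31a is part of the coat of vesicles that leave the endoplasmic reticulum, Kif1c is a kinesin motor, Tln1 (talin) links integrins to actin and Myh9 is a non-muscle myosin heavy chain. Nearest to Plxnb2 were Man1c1 (0.96, and 0.95 over 10 libraries), Ogfod3 (0.94 and 0.92) and Naglu (0.93 and 0.92). Nearest to Plxnc1 were Tlr13 (0.93 and 0.91), Nhlrc3 (0.91 and 0.90) and Hgf (0.89 and 0.90). Among the nearest to Plxnd1 were Mfsd12 (0.97, and 0.92 over 10 libraries) and Srxn1 (0.96 and 0.93). Nearest to Nrp2 were Hspa9 (0.99 and 0.95), Creb3l2 (0.98 and 0.90) and Slc4a2 (0.98 and 0.90). Over 10 libraries Hspa9 stayed first for Nrp2, while Creb3l2 ranked 22 and Slc4a2 17. For Plxnd1, Mfsd12 then ranked 21 and Srxn1 12. Nearest to Nrp1 were Slc23a2 (0.93, and 0.94 over 10 libraries), Rap2a (0.92 and 0.96) and Shisa9 (0.90 and 0.95). Over 10 libraries these ranked 10, 1 and 5. Tlr13, Nhlrc3 and Hgf then ranked 7, 14 and 17 for Plxnc1, and Man1c1, Ogfod3 and Naglu 3, 9 and 11 for Plxnb2. For Plxna1, Sec31a ranked 6, Kif1c 8, Tln1 9, Slc19a1 25 and Myh9 5. Genes with r above 0.9 over 12 libraries numbered 155 for Nrp2 and 141 for Plxnd1, the genes lowest in the libraries that stand apart. They numbered 28 for Plxna1, 16 for Plxnb2, 4 for Nrp1 and 2 for Plxnc1.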

How the data were processed

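Counts per gene symbol, deposited by the authors as whole numbers and not normalized, were read for 12 libraries matched by title. RNA came from an RNeasy Micro kit and was made into NEBNext Ultra II stranded mRNA libraries for paired-end sequencing, per the labels. The submitters' processing notes name bcl2fastq 2.20, STAR, Bowtie and mm10 without roles. The counting tool, its strand setting and its annotation are not given in the sources used here.

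The low-count filter was filterByExpr with the 4 groups and kept 12981 of 24421 genes, holding at least 99.97% of each library's counts. Depth was 23.2 to 29.9 M counts per library, and the errors given are the spread between libraries. Counts were scaled by TMM and fitted as 4 group means with robust quasi-likelihood models in edgeR 4.0.16 (R 4.3.3), with a biological coefficient of variation of 0.179. Tests were two-sided, and calls needed an adjusted p (Benjamini-Hochberg, over all tested genes) below 0.05. SEs are the estimate over the square root of its F statistic. CPM are TMM-scaled, and correlations used log2 CPM with a prior count of 2. The code was tested on simulated data.

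Exon lengths and positions are from GENCODE M21 on GRCm38, the same build as mm10, and promoters from RefSeq. The genes and lists were chosen with earlier results of these data known. The named genes are the 6 receptors, Ifngr1, the 4 most abundant tested genes and any called gene of each pathway list, marker lists as ranges, and the genes most like each receptor by Pearson r (5 for Plxna1, 3 for the others, of which 1 is not reported here). Further genes were named after seeing their values, as stated there, or are known ligands or receptors of the 6 genes. Alternatives were DESeq2 1.42.0, voom in limma 3.58.1, other scalings and filters, the title number (alone or with the letter) as a block, only libraries titled 40, only the groups compared and each library left out. Replicates were numbered in the order listed and pair nothing.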

Additional observations from a re-analysis of the deposited data

How the results depend on the processing

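The Plxna1 antibody difference ranged from -0.62 to -0.36 in wt/null and from -0.38 to -0.26 in null/null over the settings run, and its sign was fixed wherever libraries were left out, since no anti-TNF library overlapped an isotype library. None of the 6 genes was called for genotype, interaction or title number under any setting. With the title number, or the title number and letter, as a block, no count of called genes moved by over 1.5 times. The mean antibody difference was then -0.46 for Plxna1, -0.60 for Nrp2 and 0.01 for Plxnc1 with number and letter. The replicate numbers are only the order in which libraries are listed and pair nothing.

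DESeq2 called 2 genes for genotype under isotype, 2 under anti-TNF and 4 for their mean (1 each in edgeR), 6 for the mean antibody difference (0) and 147 for the title number (2). Voom called 122 for the title number, and 82 were called without the 2 libraries that stand apart. With only the 8 libraries titled 40, 0 genes were called for genotype under either antibody and 1 for the mean antibody difference. With only the groups compared, 0 were called for genotype under anti-TNF and 1 for the antibody in null/null. Leaving out 1 library gave 0 to 86 for the title number.

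Some estimates changed sign, and not only those near 0, since the Nrp2 interaction (0.25 in the main fit) was among them. The antibody difference of Plxnc1 ranged from -0.0990 to 0.0414 for the mean of both genotypes with 1 library left out, and that of Nrp1 in null/null from -0.0233 to 0.0333. In wt/null, the antibody differences of Nrp2 and Plxnd1 stayed below 0 with 1 library left out and ranged from -0.9142 to -0.3100 and from -0.3706 to -0.0842. Split by title number, those among libraries titled 46 rest on 1 library against 1. In log2 CPM they were -0.45 (wt/null) and 0.28 (null/null) for Nrp2, 0.03 and -0.07 for Plxnd1, and 0.04 and -0.23 for Plxnb2. Among libraries titled 40 they were -0.80 and -0.76 for Nrp2, -0.33 and -0.32 for Plxnd1, and -0.25 and -0.13 for Plxnb2. With only libraries titled 40, the genotype difference under isotype was -0.0202 for Plxnb2 and 0.1936 for Nrp2, that of Nrp1 under anti-TNF was -0.0644, and the interaction was 0.1126 for Plxnb2, 0.0178 for Plxnd1 and -0.0125 for Nrp2. Plxnc1 under anti-TNF was at -0.0329 with voom and -0.0587 without the 2 libraries. Leaving out 1 library at a time, the genotype difference under isotype ranged from -0.0366 to 0.0505 for Plxna1, -0.0323 to 0.0873 for Plxnb2, -0.2196 to 0.0412 for Plxnc1 and -0.1855 to 0.1043 for Nrp2. Under anti-TNF it ranged from -0.0432 to 0.0631 for Plxnb2, -0.1047 to 0.1326 for Plxnc1, -0.0598 to 0.2283 for Plxnd1, -0.0939 to 0.2102 for Nrp1 and -0.1274 to 0.4775 for Nrp2. For the mean it ranged from -0.0033 to 0.0574 for Plxnb2, -0.0976 to 0.0434 for Plxnc1, -0.1007 to 0.0514 for Nrp1 and -0.1051 to 0.2002 for Nrp2. The interaction ranged from -0.0796 to 0.0594 for Plxnb2, -0.0143 to 0.2656 for Plxnc1, -0.1402 to 0.1459 for Plxnd1 and -0.0493 to 0.5547 for Nrp2. The cause of these changes was not tested. The comparison by title number and its settings, and the block of number and letter, were added after the values were seen.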
